A study of Mus musculus with 4 samples.

Results

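The macrophage and monocyte genes described here are Csf1r, Adgre1, Cd68, C1qa, C1qb, C1qc, Mertk, Lyz2 and Vcan, chosen by annotated gene symbol. These 9 genes, each read by 1 probe set, stand among 17544 named genes on a mouse whole-transcript array (MoGene ST 2.0). None of the 9 genes differed by as much as 1.5-fold between any of the 4 arrays. Lyz2 had an XCL1 difference in KO cells that lay 1.58-fold above the one in WT cells, which rests on 4 single arrays.

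The study used type 1 conventional dendritic cells (cDC1), as the series' title names them, from C57BL/6 mice aged 10 weeks. XCR1-deficient (KO) cells received LPS (100 ng/ml), a bacterial product that Toll-like receptor 4 senses, or LPS with recombinant mouse XCL1 (rmXCL1, 100 ng/ml), the ligand of XCR1. WT cells received the same treatments. All 4 groups therefore had LPS, and no group without LPS was analysed here. How the deficiency was made, the tissue of origin, the time of treatment and any pooling of animals are not stated in the sources at hand. Each group had 1 array, so precision is limited by the number of arrays, and differences carry no SD and no p-value. All values are log2 RMA signals, in which a difference of 1 is a doubling, or differences between them. A gene counts as higher or lower where 2 arrays differ at least 1.5-fold (0.58 on the log2 scale).

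Macrophages and monocytes express the receptor for colony-stimulating factor 1. Mature macrophages are phagocytes that clear dying cells, make complement and digest what they take up in lysosomes. Monocytes are blood cells that can become macrophages or dendritic cells in tissue. Several of these genes are shared with dendritic cells, and cDC1 also take up dead cells.

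The labels were checked before the genotypes were compared. Xcr1 gave signals of 5.54 in KO cells and 6.42 in WT cells with LPS. It gave 5.11 in KO cells and 7.19 in WT cells with LPS and XCL1, so it was lower in KO cells in both pairs. Of 14 annotated cDC1 markers, 13 reached 5.43, the median over the whole table and the limit on signal used below, on 1 or more arrays, and the exception was Itgae. All 4 samples are given as female, but probe sets of the Y-linked genes Eif2s3y, Kdm5d and Uty read between 7.01 and 8.89 on the 4 arrays. Xist, which is transcribed from the inactive X chromosome, read 4.64 and 4.57 on the KO arrays and 7.95 and 7.91 on the WT arrays. KO minus WT, Eif2s3y, Kdm5d and Uty differed by 0.16, -0.07 and 0.18 with LPS. With LPS and XCL1 these Y-linked genes differed by 0.10, -0.07 and 0.14. The sex of the cells may therefore go against the labels and, by Xist alone, may differ between genotypes. The array names in the labels also carry one prefix for KO and another for WT, so genotype, sex and array set cannot be told apart.

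Of the 9 genes, 6 had a promoter in the RefSeq table used here (GRCm38.p6), and Csf1r, Adgre1 and C1qa had no entry. The 250 bases before the start are shown for Mertk and Lyz2, which had the largest genotype differences of the 9 genes with LPS and XCL1, and for C1qb and C1qc, which are next to each other in the genome and were read by separate probe sets. Capitals mark the PU box GAGGAA, the core site of the macrophage factor PU.1, on either strand.
Mertk (chr2:128698665-128698914, plus strand): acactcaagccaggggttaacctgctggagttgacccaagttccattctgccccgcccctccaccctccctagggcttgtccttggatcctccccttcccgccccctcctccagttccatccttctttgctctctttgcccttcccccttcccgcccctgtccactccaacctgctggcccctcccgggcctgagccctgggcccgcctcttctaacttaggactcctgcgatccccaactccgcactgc
Lyz2 (chr10:117282273-117282522, minus strand): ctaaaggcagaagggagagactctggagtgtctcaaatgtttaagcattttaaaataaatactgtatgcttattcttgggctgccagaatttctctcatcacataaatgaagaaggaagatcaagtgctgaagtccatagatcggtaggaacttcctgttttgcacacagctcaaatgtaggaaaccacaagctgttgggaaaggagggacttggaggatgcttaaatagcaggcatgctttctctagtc
C1qb (chr4:136886201-136886450, minus strand): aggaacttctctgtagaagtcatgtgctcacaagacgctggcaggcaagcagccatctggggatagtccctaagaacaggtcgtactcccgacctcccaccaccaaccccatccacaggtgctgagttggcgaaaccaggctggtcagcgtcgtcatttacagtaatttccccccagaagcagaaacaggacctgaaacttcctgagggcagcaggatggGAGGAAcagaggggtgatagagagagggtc
C1qc (chr4:136892915-136893164, minus strand): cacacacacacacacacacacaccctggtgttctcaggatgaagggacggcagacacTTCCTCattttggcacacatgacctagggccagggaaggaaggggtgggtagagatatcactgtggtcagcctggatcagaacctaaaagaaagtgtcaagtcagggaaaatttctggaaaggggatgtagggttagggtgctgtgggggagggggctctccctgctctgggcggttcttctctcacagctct
The PU box began at -30 from the start in C1qb and at -193 in C1qc, and these letters were not in the windows of Mertk and Lyz2. It was present in 23.3% of the 32851 promoters in the table. Searched on both strands, the C/EBP motif TTGCNNAA (9.56% of promoters) and the AP-1 motif TGANTCA (6.75%) had no match in these 4 windows. The Cd68 window held AP-1 matches at -149 and -24, a C/EBP match at -43 and a PU box at -225. The searched motifs do not overlap each other in any of these windows, and a match is a description of letters, not of binding.

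**Figure D1:**
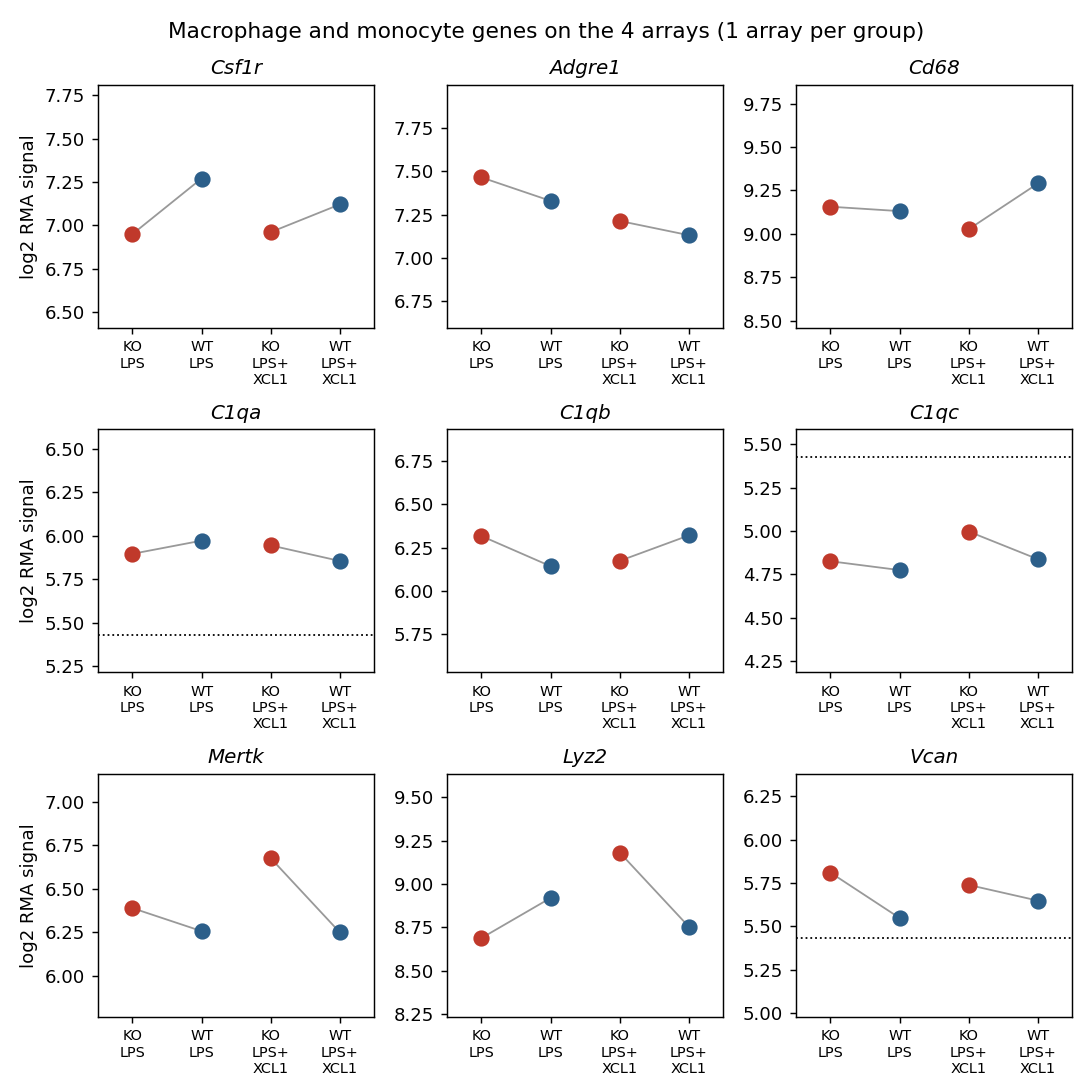
Log2 RMA signal (y axis, the same span of 1.4 units in every panel) of the 9 genes on 1 KO (red) and 1 WT (blue) array with LPS and 1 KO and 1 WT array with LPS and XCL1 (x axis). Lines join the arrays of a pair and the dotted line is the signal limit of 5.43; Lyz2 has its highest signal, 9.18, in KO cells with LPS and XCL1, and C1qc lies below the limit on the 4 arrays.

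Csf1r encodes the receptor for CSF1 and IL-34 that macrophages need to survive. Its signals were 6.95 in KO cells and 7.27 in WT cells with LPS, and 6.96 in KO cells and 7.12 in WT cells with LPS and XCL1. Both KO arrays lay below both WT arrays, by 0.32 with LPS and by 0.16 with LPS and XCL1. Adgre1 encodes F4/80, an adhesion receptor and a standard surface marker of mouse macrophages. It read 7.47 in KO cells and 7.33 in WT cells with LPS, and 7.21 in KO cells and 7.13 in WT cells with LPS and XCL1. The KO array was the higher one in each pair, by 0.14 and 0.08, and the genotypes overlapped.

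Cd68 encodes a heavily glycosylated protein of late endosomes and lysosomes. It read 9.16 in KO cells and 9.13 in WT cells with LPS, and 9.03 in KO cells and 9.29 in WT cells with LPS and XCL1. The genotype difference was 0.03 in the first pair and -0.26 in the second, and the genotypes overlapped. Lyz2 encodes the lysozyme of macrophages, monocytes and neutrophils. Its signals were 8.69 in KO cells and 8.92 in WT cells with LPS, and 9.18 in KO cells and 8.75 in WT cells with LPS and XCL1. The KO arrays were thus the lowest and the highest of the 4, and the genotype differences ran in opposite directions, at -0.23 and 0.43. Lyz1, the neighbouring copy expressed in Paneth cells, had its own probe set, which read 5.02 in KO cells and 5.06 in WT cells with LPS. It read 5.10 in KO cells and 4.96 in WT cells with LPS and XCL1, below the limit throughout. The probe sequences were not used here, so signal of one copy on the other's probes was not tested.

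The 3 C1q chains assemble into C1q, the recognition unit of the classical complement pathway, and macrophages and some dendritic cells make it. Their genes follow each other on chromosome 4, with 0 other genes between them in the RefSeq table. C1qa read 5.90 in KO cells and 5.97 in WT cells with LPS, and 5.94 in KO cells and 5.86 in WT cells with LPS and XCL1. Its range over the 4 arrays, 0.12, was the smallest of the 9 genes. C1qb, whose upstream window is printed above, read 6.32 in KO cells and 6.14 in WT cells with LPS. With LPS and XCL1 it read 6.17 in KO cells and 6.32 in WT cells, so the direction turned between the pairs. C1qc read 4.83 in KO cells and 4.78 in WT cells with LPS, and 4.998 in KO cells and 4.84 in WT cells with LPS and XCL1. These signals lie below the limit on the 4 arrays, so no fold is given. In the 4 comparisons of single arrays, which share arrays with each other, the differences of the 3 chains spread over 0.25 to 0.31 log2 units. C1qa and C1qb had opposite signs in each of the 4. With arrays centred on their gene median, their signs matched for KO minus WT with LPS (0.03 and 0.28). They also matched for XCL1 in KO cells (-0.02 and -0.21).

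Mertk encodes a receptor tyrosine kinase that binds dying cells through the bridging ligands Gas6 and protein S. It read 6.39 in KO cells and 6.26 in WT cells with LPS, and 6.68 in KO cells and 6.25 in WT cells with LPS and XCL1. Both KO arrays lay above both WT arrays, with differences of 0.13 and 0.43, the second being 1.35-fold. Vcan encodes versican, a matrix proteoglycan that classical monocytes express. It read 5.81 in KO cells and 5.55 in WT cells with LPS, and 5.74 in KO cells and 5.65 in WT cells with LPS and XCL1. The KO arrays were again the higher ones, by 0.26 and 0.09, close to the limit on signal.

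The comparison of KO with WT cells asked how the 9 genes stood when the receptor was missing. With LPS, 0 of 9 were higher and 0 lower at 1.5-fold, against 2.02% of the 11091 named genes past the limit called in either direction. With LPS and XCL1 the counts were again 0 and 0, against 3.48%. A count of 0 among 9 genes is close to these background shares. The median difference was 0.05 with LPS (range -0.32 to 0.26), against -0.05 over all genes past the limit. With LPS and XCL1 it was 0.09 (range -0.26 to 0.43), against -0.04. The median size of the difference, sign aside, was 0.14 and 0.16 for the 9 genes and 0.14 and 0.16 for all genes. C1qc is counted among the 9 although it never passed the limit on signal, and the other 8 genes passed it on each of the 4 arrays.

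The genotype pairs share no array, so the direction of each gene can be set side by side. The KO difference had the same sign in both pairs for 5 of 9 genes, against 67.6% of all genes past the limit. KO and WT arrays did not overlap for Csf1r, Mertk and Vcan, 3 of 9, against 52.1%. Ranked by size among the 11091 genes, the Csf1r difference with LPS was number 1679 and that of Vcan 2582. Mertk and Lyz2 stood at 1090 and 1094 with LPS and XCL1.

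**Figure D2:**
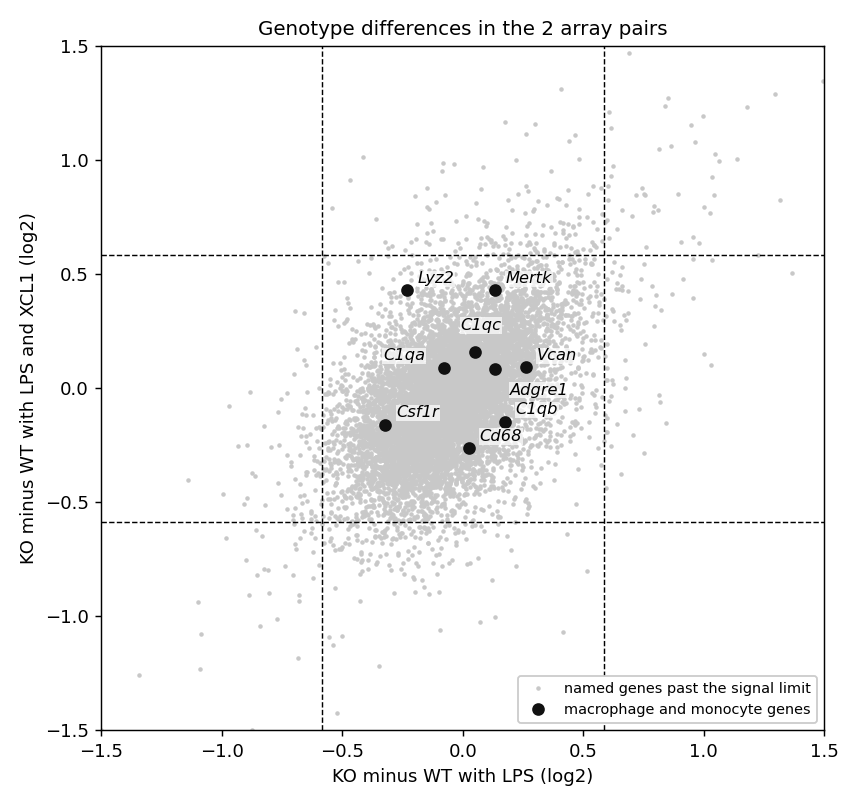
KO minus WT log2 difference with LPS (x axis) and with LPS and XCL1 (y axis) for the 9 genes (black, labelled) and the 11091 named genes past the signal limit (grey; values beyond the axes are drawn at the edge). Dashed lines mark 1.5-fold; the 9 genes lie inside them, from -0.32 to 0.26 along x and from -0.26 to 0.43 along y.

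Adding XCL1 to LPS in KO cells asked what the chemokine did where its receptor was missing. Of the 9 genes, 0 were higher and 0 lower at 1.5-fold, against a background of 1.02%. Lyz2 read 9.18 with LPS and XCL1 and 8.69 with LPS, a difference of 0.49 or 1.41-fold, number 243 in size among 11091 genes. Mertk followed at 0.29, with 6.68 and 6.39. Adgre1 was the lowest at -0.25, with 7.21 and 7.47. The median of the 9 differences was 0.01, against 0.04 for all genes past the limit.

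In WT cells, which carry the receptor, the XCL1 differences of the 9 genes lay within 0.20 of 0. No member was higher or lower at 1.5-fold, against a background of 0.559%. The differences ran from -0.20 for Adgre1 (7.13 with LPS and XCL1, 7.33 with LPS) to 0.18 for C1qb (6.32 and 6.14). Lyz2 stood at -0.17, Csf1r at -0.15 and Mertk at -0.01. The median was -0.01, against 0.03 for all genes past the limit. The XCL1 difference had the same sign in KO and WT cells for Adgre1 and C1qc, 2 of 9 genes, against 56.2% of all genes.

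**Figure D3:**
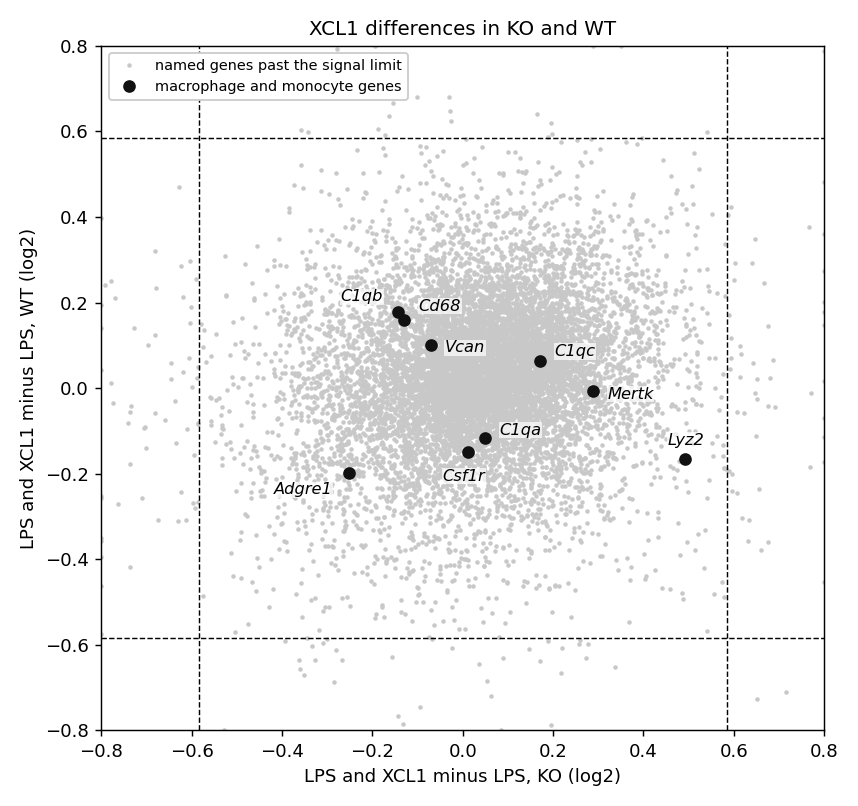
Log2 difference between LPS with XCL1 and LPS alone in KO cells (x axis) and in WT cells (y axis) for the 9 genes (black, labelled) and the 11091 named genes past the signal limit (grey; values beyond the axes are drawn at the edge). Dashed lines mark 1.5-fold; Lyz2 is the rightmost of the 9, at 0.49 in KO and -0.17 in WT.

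The XCL1 difference in KO cells minus that in WT cells asked whether the response depended on the receptor. It combines 4 single arrays, shares them with each comparison above, and was not tested. Lyz2 was the 1 member past 1.5-fold, at 0.66, with 0 of 9 lower, against a background of 2.92% in either direction and 1.54% for higher. It was number 199 in size among 11091 genes. Among the 6116 genes with a signal of at least 6.91, the 75th percentile of all values, 1.23% were past 1.5-fold. C1qb had the lowest value, at -0.32, Cd68 stood at -0.29 and Mertk at 0.30. The median was 0.11, against 0.01 for all genes.

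Markers of other cells were set beside these values. Neutrophils also express Lyz2, and the mean log2 signal over 9 neutrophil markers was 6.82 in KO cells and 6.40 in WT cells with LPS and XCL1. With LPS it was 6.72 in KO cells and 6.42 in WT cells. The XCL1 difference in KO cells minus that in WT cells had a median of -0.05 over these 9 markers and of 0.27 over the 7 past the limit on signal, in the direction of Lyz2. By this measure S100a8 stood at 0.85, past 1.5-fold, and Ltf, S100a9 and Elane at 0.57, 0.38 and 0.27. Ngp, Mpo and Camp stood at -0.05, -0.19 and -0.37, and Ly6g and Retnlg were below the limit on the 4 arrays. Markers of type 2 conventional dendritic cells (cDC2) had a median of 0.17 over 8, with 6 above 0, and of 0.40 over the 4 past the limit. These 4 were Cd209a at 0.63, past 1.5-fold, Itgam at 0.47, Sirpa at 0.33 and Irf4 at -0.0014. The part of neutrophils or cDC2 in the Lyz2 value was not tested.

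The genotypes differed in markers of lymphocytes and red cells as well. B cell markers had means of 7.57 and 7.56 in KO cells and 8.14 and 8.18 in WT cells, with 0 of 8 above 0 in either genotype pair and each of the 8 past the limit. T cell markers averaged 6.54 and 6.47 in KO cells and 7.04 and 6.98 in WT cells, with 0 of 7 above 0. The 4 annotated red cell markers averaged 6.54 and 6.46 in KO cells and 5.49 and 5.52 in WT cells, with 3 of 4 higher in each pair. Each of the first values is with LPS and each of the second with LPS and XCL1. Over all genes past the limit, 39.8% were above 0 with LPS and 43.2% with LPS and XCL1. At 1.5-fold, 1.01% and 1.69% were higher. The part of these cells in the genotype values of the 9 genes was not tested. In such bulk samples, fewer cells of a type and less RNA per cell cannot be told apart.

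Related genes were counted in 8 lists covering the CSF1R axis, complement, apoptotic cell uptake, monocytes, macrophages in general, tissue macrophages, partners of versican and lysosomes. The lists hold 168 genes, of which 157 were annotated and 112 passed the limit on signal. In KO against WT cells with LPS, 5 of the 112 were higher and 1 lower. In the other pair, with XCL1 added, the counts were 7 and 3. These are 5.36% and 8.93% of the 112, against 2.02% and 3.48% of all genes past the limit. The lists were chosen with earlier results of these data known, so their counts, here and below, are no test. With arrays centred on their gene medians the counts were 9 and 0 with LPS, and 13 and 1 with LPS and XCL1. Centring also moved the 11091 genes past the limit, to 211 higher and 52 lower with LPS (2.37% called). With LPS and XCL1 it gave 334 and 93 (3.85%). XCL1 in KO cells left 1 higher and 1 lower, or 1.79% against 1.02% of all genes, and XCL1 in WT cells 0 and 0, against 0.559%. For the XCL1 difference in KO minus WT, 5 were higher and 1 lower, or 5.36% against 2.92%. The median differences of the 112 genes were -0.05 and -0.0018 for the genotype pairs, against -0.05 and -0.04 over all genes past the limit.

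On the CSF1R axis, the ligand gene Csf1 differed more than the receptor gene. Csf1 read 7.70 in KO cells and 7.06 in WT cells with LPS, and 7.64 in KO cells and 6.94 in WT cells with LPS and XCL1. It was higher in KO cells in both pairs, by 0.64 and 0.70, and it was the 1 called gene of 12 past the limit in this list. Over all genes past the limit, 2.02% and 3.48% were called in these pairs. The other ligand gene, Il34, had no array past the limit and differed by -0.09 and 0.01. Spi1, which encodes PU.1, differed by -0.12 and -0.07.

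Among monocyte genes, 3 of 18 were higher in KO cells with LPS, and 5 higher and 1 lower with LPS and XCL1. Over all genes past the limit 1.01% were higher with LPS, and 1.69% higher and 1.79% lower with LPS and XCL1. Of the 9 neutrophil markers, 8 were above 0 in each pair, and 2 were higher by 1.5-fold in the first pair, 1 of them (Retnlg) below the limit, and 3 in the second. Their part in these counts was not tested. Fcgr1, the high-affinity IgG receptor, read 9.06 in KO cells and 8.06 in WT cells with LPS, and 9.26 in KO cells and 8.06 in WT cells with LPS and XCL1. It was higher by 1.00 and 1.19, and both KO arrays lay above both WT arrays, as for 18.9% of all genes past the limit. Chil3, a chitinase-like protein of myeloid cells, read 8.18 in KO cells and 7.56 in WT cells with LPS, and 8.41 in KO cells and 7.48 in WT cells with LPS and XCL1. Its differences were 0.61 and 0.93. Thbs1, which encodes thrombospondin-1, differed by 0.60 and 0.82. Treml4, a receptor of the TREM family, ran the other way, at -0.50 and -0.70, and was called in the second pair. Csf1, Fcgr1, Chil3 and Thbs1 were the genes of the 8 lists past 1.5-fold in both genotype pairs. Ly6c2, the defining surface marker of classical monocytes, differed by -0.11 and -0.03.

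Genes for the uptake of dying cells, with which Mertk acts, gave 1 higher gene of 17 with LPS and 1 lower with LPS and XCL1. Over all genes past the limit, 1.01% were higher with LPS and 1.79% lower with LPS and XCL1. Anxa1, which encodes annexin A1, differed by 0.74 and 0.48. The scavenger receptor gene Cd36 differed by -0.57 and -0.68, and with arrays centred on their gene median its second value was -0.58, just short of the threshold. The other TAM receptor genes, Axl and Tyro3, differed by 0.57 and -0.05 with LPS and by 0.21 and 0.36 with LPS and XCL1. The ligand gene Gas6 had no array past the limit.

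Complement genes other than C1q gave 0 higher and 0 lower of 13 past the limit in each of the 5 comparisons. Over all genes past the limit, the called shares ran from 0.559% to 3.48%, so a count of 0 is close to them. The genes for calreticulin (Calr) and the C1q-binding protein C1qbp differed least, judged by the greatest difference in any of the 5 comparisons. Their genotype differences were -0.03 and 0.08 with LPS and 0.04 and 0.00 with LPS and XCL1. Tissue macrophage genes also gave 0 of 10 in the 5 comparisons, against the same shares. By the same measure Vcam1 and Selenop differed least, with genotype differences of 0.15 and 0.18 with LPS and of 0.26 and -0.03 with LPS and XCL1. The red pulp macrophage factor Spic, which read between 10.2 and 10.4, differed by -0.18 and 0.18, while Cd163 and Vsig4 had no array past the limit.

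Of 22 general macrophage genes past the limit, 1 was higher in KO cells with LPS and 2 with LPS and XCL1, Fcgr1 in both. The shares of higher genes among all genes past the limit were 1.01% and 1.69%. Msr1, the class A scavenger receptor gene, read 6.69 in KO cells and 6.08 in WT cells with LPS and XCL1, and 6.07 in KO cells and 6.38 in WT cells with LPS. Its KO array with LPS and XCL1 was the highest and its KO array with LPS the lowest of the 4. Of 14 lysosome genes past the limit, 0 were higher and 1 was lower in each genotype pair. The shares of lower genes among all genes were 1.01% with LPS and 1.79% with LPS and XCL1. The hexosaminidase gene Hexa differed by -0.65 and -0.49 and the tetraspanin gene Cd63 by -0.55 and -0.66. With arrays centred on their gene median, these 2 genes were within 1.5-fold in both pairs. Among partners of versican, Adamts4, a protease that cleaves it, was the 1 called gene of 9, at -0.61 for XCL1 in KO cells (background 1.02%). Its signal passed the limit on 1 array, and with dim signals raised to the limit that value was -0.02.

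**Figure D4:**
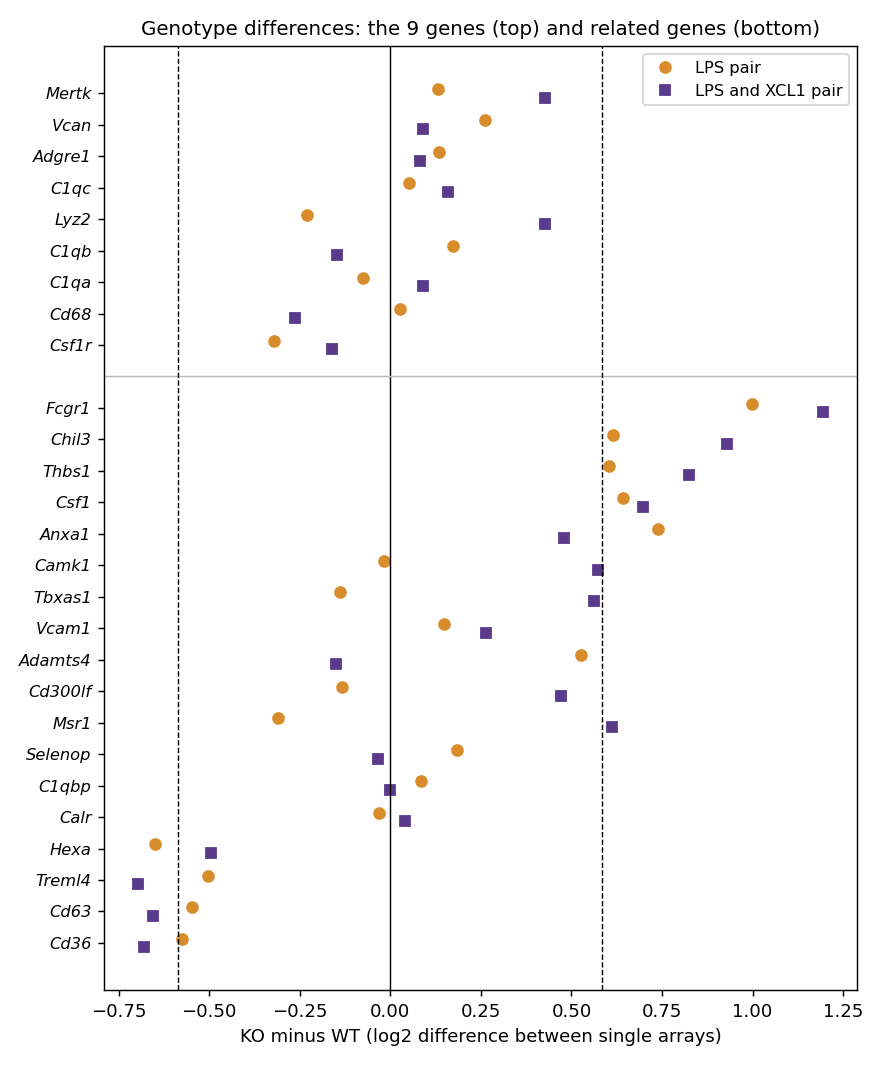
KO minus WT log2 difference (x axis) with LPS (orange circles) and with LPS and XCL1 (purple squares) for the 9 genes (top block) and the related genes named by rule (bottom block). Dashed lines mark 1.5-fold; Fcgr1 lies at 1.00 and 1.19, and the 9 genes lie between -0.32 and 0.43.

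No member had a range over the 4 arrays of 1.5-fold or more, the widest being 0.49 for Lyz2, against 8.04% of all genes past the limit. The genes most like a member were to be named where its range reached that size, so none are named.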

How the data were processed

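Labels' protocols give TRIzol extraction of total RNA and biotin labelling of sense cDNA; 4 arrays were used, 1 per group. The values the authors deposited are on the log2 scale and were made by RMA at gene level, per the labels' descriptions. RMA corrects background, equalises the arrays' distributions and summarises probes, so a shift of most genes in 1 direction is hidden. The sources used here name neither the software nor the annotation build. Array medians ran from 5.40 to 5.44, and correlations between arrays, across genes, from 0.983 to 0.993.

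Of 41345 probe sets, the platform annotation gave 1 gene symbol to 23521 and several to 1814, and 16010 had no name here. A RefSeq table held the gene ID of 23328 and changed 0 symbols. Predicted genes, small RNAs, olfactory receptors and receptor segments were left out, and the probe set with the highest mean stood for a gene. This left 17544 genes, 11091 of them with a signal of at least 5.43 on 1 or more arrays. That limit, the median of all values, is not a measured background. Differences were taken between single arrays in 5 comparisons, with no test, and counting was tested on simulated data. Of the 168 list genes, 11 were not listed in the annotation used here.

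The members and lists were chosen with earlier results of these data known. Named were the 9 members and Xcr1. From each list up to 4 genes past 1.5-fold in any comparison were added, those with the largest smaller value of both genotype differences first, or the 2 least different where no gene passed. Ly6c2, Spi1, Il34, Spic, Axl, Tyro3, Gas6, Cd163, Vsig4, Lyz1, the genes of the sex check and the markers were added after their values were seen. The promoter motifs were chosen then as well. Alternatives were a 2-fold threshold, dim signals raised to the limit, no limit, a limit of 6.91, cyclic loess (limma 3.58.1, span 0.7, 3 iterations), centring on the gene median and the mean of probe sets. Other steps used Python 3.11.15, numpy 2.4.6 and pandas 2.3.3.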

Additional observations from a re-analysis of the deposited data

Results flagged for a closer look

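In 7 of the named genes the XCL1 differences had opposite signs in KO and WT cells and lay at least 1.5-fold apart. Over all genes past the limit, 2.92% lay that far apart, whatever their signs. The share that also had opposite signs is not given here. Passing that size in any comparison was part of how 5 of them, the list genes, came to be named, so their number is no result. With 1 array per group the difference between genotypes was not tested. Xcr1, the targeted gene, differed by -0.43 in KO cells and 0.77 in WT cells, a value of -1.20, or -0.88 with dim signals raised to the limit. Lyz2, the macrophage and neutrophil lysozyme, differed by 0.49 in KO cells and -0.17 in WT cells, 0.66 apart. Msr1, the scavenger receptor gene, differed by 0.62 and -0.30, 0.92 apart. Tbxas1, which encodes thromboxane synthase, differed by 0.41 and -0.29, 0.70 apart, or 0.49 apart with dim signals raised to the limit. Cd300lf, an inhibitory receptor gene, differed by 0.27 and -0.34, 0.60 apart, or 0.577 with dim signals raised, just short of the threshold (0.585). The kinase gene Camk1 differed by 0.27 and -0.32, 0.59 apart, or 0.33 with dim signals raised. Adamts4 differed by -0.61 in KO cells and 0.07 in WT cells, a value of -0.68, or -0.02 with dim signals raised.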

How the results depend on the processing

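For the 9 genes, counts and medians in the 5 comparisons gave 105 values under the alternatives. Of these, 104 stayed within 1.5 times the count, or within the SD of all genes' differences for a median, and 1 did not. Part of this was fixed in advance. Each gene has 1 probe set and all 9 were kept with no limit on signal, so these 2 alternatives could move no value. A fold threshold could move no median. A median could also turn its sign within that SD, so the count of 104 is no measure of stability. At a 2-fold threshold 0 of 9 genes passed for the XCL1 effect in KO minus WT, where Lyz2 passes 1.5-fold (0.64 with cyclic loess, 0.66 with centring). Under the limit of 6.91, 4 of the 9 genes remained, and the genotype medians were -0.10 and -0.04. Centring on the gene median added 0.10 to each genotype difference and turned the sign of C1qa with LPS (0.03) and of 3 XCL1 values, for Csf1r and C1qa in KO cells (-0.06 and -0.02) and C1qc in WT cells (-0.0033). Cyclic loess turned Csf1r in KO cells (-0.05). Over all genes, called counts moved by more than 1.5 times under a 2-fold threshold, to 24 from 224, 43 from 386, 6 from 113, 2 from 62 and 22 from 324 (KO minus WT with LPS, the same with LPS and XCL1, XCL1 in KO, XCL1 in WT, and their difference). With no limit on signal, over 17544 genes, the counts were 352, 578, 223, 186 and 756 (2.01%, 3.29%, 1.27%, 1.06% and 4.31%). With the limit of 6.91, over 6116 genes, they were 105, 198, 27, 11 and 75 (1.72%, 3.24%, 0.441%, 0.18% and 1.23%), and raising dim signals gave 67 and 27 for XCL1 in KO and WT and 209 for their difference. Centring moved the split of higher and lower genes to 211 and 52 with LPS from 112 and 112, to 334 and 93 with LPS and XCL1 from 187 and 199, to 25 and 89 for XCL1 in KO from 53 and 60, and to 13 and 65 for XCL1 in WT from 25 and 37. Hexa with LPS was within 1.5-fold under cyclic loess (-0.58). No paired analysis was possible because each group had 1 array, and the labels give no replicate numbers that pair arrays. An additive fit of genotype and treatment, with 1 residual degree of freedom, was left out, since it takes the XCL1-by-genotype difference as error. The deposited table has no detection flags, so what signal over background limits is unknown below the limit.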

Other observations

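Some genes of the lists lay short of 1.5-fold with the same sign in both genotype pairs, and they are named here after their values were seen. The sign was the same in both pairs for 67.6% of all genes past the limit. Timd4, a receptor for phosphatidylserine on dying cells, read 9.82 in KO cells and 9.45 in WT cells with LPS, and 9.82 in KO cells and 9.32 in WT cells with LPS and XCL1. Tyrobp, the signalling adaptor of the TREM receptors, differed by -0.41 and -0.54. Lamp2, a lysosomal membrane protein gene, differed by 0.25 and 0.39. Itgam, an integrin gene of myeloid cells that also stands among the cDC2 markers above, differed by 0.08 with LPS and by 0.55 with LPS and XCL1.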
